A study of Mus musculus with 4 samples.

Results

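The genes described here are 56 mouse genes of nucleolar ribosome assembly and RNA polymerase I, out of 23284 gene symbols in the deposited tables. They were taken by symbol from a fixed list, chosen with earlier results of these data known, and all 56 had a row of their own. RNA had been sequenced from EGFP+ cells that were sorted a second time, 24 h after transplantation, from the femur and tibia marrow of single recipient mice. The transplanted cells were 100000 LSK cells (Lin- Sca1+ c-Kit+, the marrow fraction with stem and multipotent progenitor cells) from CAG-EGFP mice, in which a ubiquitous promoter drives the green fluorescent protein. The recipients were wild-type mice of 2 groups with 2 libraries each: non-treated controls, and mice that had received 200 mg/kg of 5-fluorouracil (5-FU) by vein 2 days before they received the cells. This pyrimidine analog kills dividing cells. The drug was given to the recipients before the transplant, so the comparison asks how donor cells differ after a day in the marrow of a 5-FU-treated or of an untreated mouse. The labels call the replicates biological and name no donor pool, sex or age.

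Ribosomes are built in the nucleolus. RNA polymerase I transcribes the ribosomal DNA repeats into one long precursor RNA, which small nucleolar ribonucleoproteins (snoRNPs) modify and a large set of assembly factors folds, cuts and joins with ribosomal proteins into the small and the large subunit. Most assembly factors are not part of the finished ribosome, and their transcripts are known to be abundant in growing cells, including blood progenitors that leave quiescence.

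Values are FPKM, fragment counts relative to transcript length and scaled for the library, so that levels of different genes can be set side by side. How the libraries were scaled is not stated in the sources used here. The sources used here do not give the read depth. Among genes with low values, 1 read was worth 1.31, 1.26 and 1.07 times as much in control library 1, control library 2 and 5-FU library 1 as in 5-FU library 2, so low values are least precise in the controls. The FPKM of a library summed to between 678222 and 762107, the highest sum being that of 5-FU library 2. By the labels the cells are hematopoietic stem and progenitor cells. All 10 stem and progenitor markers examined had a value above 0 in every library, and they summed to 497.7 and 398.8 FPKM in the controls and to 420.5 and 604.9 FPKM in the 5-FU libraries. Ly6a, which encodes Sca1, was the 1 of 9 tested that rose, at 18.7, 17.0, 32.5 and 54.0 FPKM (control 1, control 2, 5-FU 1, 5-FU 2, the order used throughout; log2 fold change 1.19, adjusted p = 0.0315 by limma). Kit, at 102.8, 65.5, 66.2 and 69.5 FPKM, and Cd34, at 138.5, 115.9, 162.7 and 264.3 FPKM, did not pass (-0.27 and 0.71). Markers of other cells were present too. The 15 macrophage markers, none of them at 0, summed to 21766 and 25023 FPKM in the controls and to 17253 and 8859 in the 5-FU libraries. The 8 neutrophil markers, also none at 0, summed to 12554 and 9765 against 3602 and 3425, and 6 of them fell. The 9 erythroid markers summed to 807 and 1154 against 163 and 209, with Alas2 listed at 0 in 5-FU library 1. The 6 B cell markers, mostly Cd79b, summed to 344 and 350.3 against 189 and 158, with Pax5 at 0 in 3 of the libraries. Those of T and NK cells, also 6, summed to 157 and 170.3 against 219 and 337, with Cd3e at 0 in 3. Most of the latter sum in the 5-FU libraries was Nkg7, which rose (108.9, 91.1, 184.3 and 313.7 FPKM). Cd4 fell (46.2, 76.8, 32.1 and 20.7 FPKM). The part of these cell types in the results was not tested.

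Transcripts of nucleolar ribosome assembly were higher in cells recovered from 5-FU-treated recipients, and the median change was positive in each of the 7 roles into which the genes were grouped. Of the 56 genes, all were expressed highly enough to be tested, 45 rose, 0 fell and 11 did not pass (limma on log2(FPKM + 1), Benjamini-Hochberg adjusted p under 0.05). Over the 11496 genes tested, 8.23% rose and 4.67% fell. The median log2 fold change of the 56 genes was 1.18, a fold change of 2.27, against -0.01 over all tested genes. The middle of the distribution was narrow, with quartiles at 1.04 and 1.46, and the extremes were 0.48 for Polr1c and 1.99 for Npm3. Both 5-FU libraries lay above both controls for 55 of the 56 genes, Gar1 being the exception, which compares with 31.4% of all tested genes. A gap of at least 2-fold between the lower 5-FU library and the higher control was found for 26 of them, against 4.51% of all tested genes. Because each library is a bulk sample, more transcript per cell and a larger fraction of cells with the transcript cannot be told apart. The number of calls depends on the controls. Without control library 1 none of the 56 passed, and without control library 2 only Nop58, Rrp9 and Nop2 did. Calls over all tested genes became fewer too. The lowest log2 fold change of the 56 was 0.46 without control library 1 and 0.42 without control library 2. Without 5-FU library 1, 52 of the 56 and 18.5% of all tested genes were called higher. With no filter on low values none passed either, with 0.0183% of all tested genes called higher, although the log2 fold changes themselves are then the same.

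**Figure D1:**
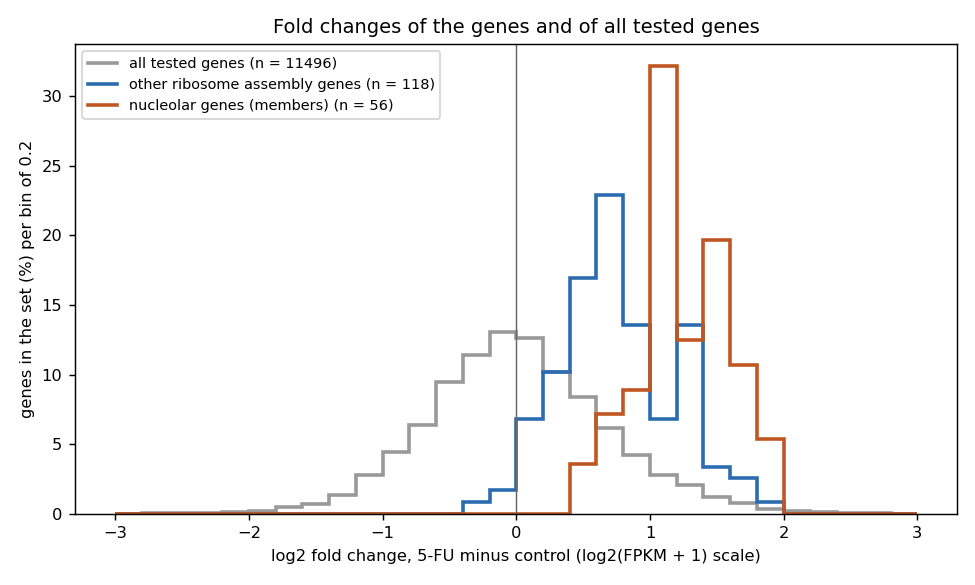
Distribution of log2 fold changes (5-FU minus control, on the log2(FPKM + 1) scale, x axis) as the percent of each set per bin of 0.2 (y axis), for all 11496 tested genes, for 118 other ribosome assembly genes and for the 56 genes described here. The 56 genes all lie to the right of 0, around a median of 1.18, and the other ribosome assembly genes around 0.71.

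The 56 genes made up 0.3325% and 0.313% of the summed FPKM of the control libraries and 0.761% and 0.873% of that of the 5-FU libraries. The difference of 0.494 percentage points compares with an SD of 0.0565 within groups. The chaperone gene Npm1 alone held 25.4% and 22.2% of the FPKM of the 56 genes in the controls and 30.0% and 33.8% in the 5-FU libraries. Without Npm1 and Ncl the share was 0.241% and 0.235% in the controls and 0.508% and 0.562% in the 5-FU libraries, a difference of 0.297 percentage points. The median gene went from 25.7 and 25.3 FPKM to 50.1 and 63.1 FPKM. Of the 56 genes, 2 had a group mean of 100 FPKM or more in the controls (Nop10 and Npm1) and 12 had one in the 5-FU group.

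**Figure D2:**
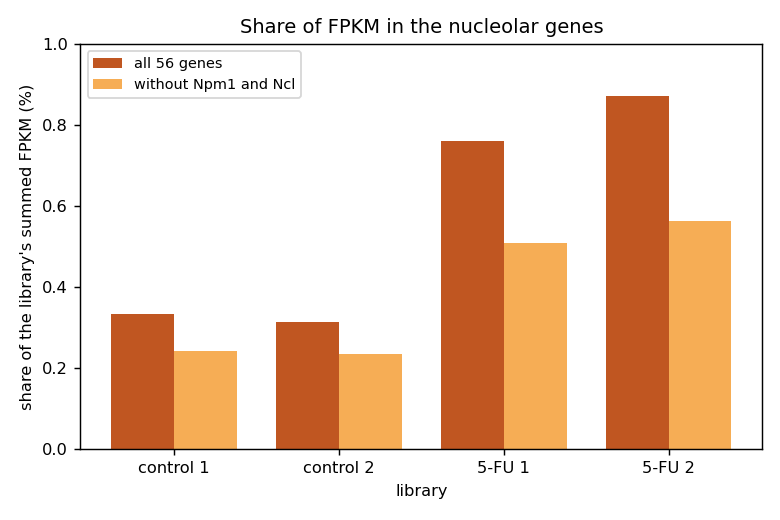
Summed FPKM of the nucleolar genes as a percent of the summed FPKM of each library (bars, y axis from 0), for all 56 genes and without Npm1 and Ncl. The 5-FU libraries stand at 0.761% and 0.873%, the controls at 0.3325% and 0.313%.

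Genes of ribosome assembly are known targets of the transcription factor MYC, which binds the E-box CACGTG, so the promoters of these genes were searched for it. The window ran from 250 bases before to 50 after each RefSeq transcription start (GRCm38.p6). The motif is a palindrome, so both strands give the same matches. A window was found for 51 of the 56 genes (60 windows), and 11 of these genes (21.6%) held the motif. Among promoters of tested genes 12.3% held it, counted by gene, and 8.09% of all genes in the promoter table. Among the other ribosome assembly genes with a window it was 16.5%. Of the 12 matches, 5 lay before the start and 7 in the 50 bases after it. The matches are shown with up to 12 bases on each side, 5′ to 3′ on the gene's strand, with the motif in capitals, because the surroundings of the motif differ from gene to gene. Rrn3 was the only one of these genes with 2 matches.
Utp18, motif begins 20 bases before the start: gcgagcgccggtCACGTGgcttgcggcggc
Rrn3, motif begins 48 bases before the start: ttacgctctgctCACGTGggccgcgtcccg
Nop2, motif begins 60 bases before the start: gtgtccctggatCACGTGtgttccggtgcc
Imp4, motif begins 121 bases before the start: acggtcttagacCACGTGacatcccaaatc
Rrn3, motif begins 215 bases before the start: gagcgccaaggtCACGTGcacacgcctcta
Pes1, motif begins 2 bases after the start: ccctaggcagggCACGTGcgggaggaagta
Wdr43, motif begins 17 bases after the start: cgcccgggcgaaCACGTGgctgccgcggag
Nle1, motif begins 23 bases after the start: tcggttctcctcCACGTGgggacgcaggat
Tsr1, motif begins 24 bases after the start: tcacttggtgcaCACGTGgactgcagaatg
Ltv1, motif begins 28 bases after the start: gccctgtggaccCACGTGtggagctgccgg
Pno1, motif begins 37 bases after the start: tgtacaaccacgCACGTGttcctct
Utp20, motif begins 37 bases after the start: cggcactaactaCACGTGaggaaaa
The next bases on each side differed between the sites. Only Nle1 had C before and G after the motif. Coordinates are GRCm38.p6: Nop2 chr6:125131811-125131840 (plus strand), Utp18 chr11:93885769-93885798 (minus), Imp4 chr1:34439696-34439725 (plus), and Rrn3 chr16:13780472-13780501 and chr16:13780639-13780668 (plus). Those after the start are Pes1 chr11:3963965-3963994 (plus), Wdr43 chr17:71616220-71616249 (plus), Tsr1 chr11:74898092-74898121 (plus), Nle1 chr11:82908355-82908384 (minus), Ltv1 chr10:13193092-13193121 (minus), Pno1 chr11:17211540-17211564 (minus) and Utp20 chr10:88826765-88826789 (minus). The flanks of the last 2 are cut short by the end of the window.

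Genes with and without the motif had similar medians. Of the 11 with it, 9 rose, with a median log2 fold change of 1.10. Of the 40 with a window and no match 31 rose, with a median of 1.16. The share that rose over all tested genes was 8.23%. The range is shown by a pair of whole upstream regions, of the gene with the largest fold change among those with a match, Nop2 (log2 fold change 1.75), and of the gene with the smallest, Rrn3 (0.51). They are given as the 250 bases before the start, at chr6:125131633-125131882 (plus strand) for Nop2 and chr16:13780449-13780698 (plus strand) for Rrn3, with the motif in capitals.
Nop2: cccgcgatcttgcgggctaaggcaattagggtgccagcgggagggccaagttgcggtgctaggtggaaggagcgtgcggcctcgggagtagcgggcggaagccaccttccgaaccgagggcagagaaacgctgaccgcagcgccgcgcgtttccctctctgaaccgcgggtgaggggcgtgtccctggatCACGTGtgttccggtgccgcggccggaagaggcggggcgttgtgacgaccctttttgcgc
Rrn3: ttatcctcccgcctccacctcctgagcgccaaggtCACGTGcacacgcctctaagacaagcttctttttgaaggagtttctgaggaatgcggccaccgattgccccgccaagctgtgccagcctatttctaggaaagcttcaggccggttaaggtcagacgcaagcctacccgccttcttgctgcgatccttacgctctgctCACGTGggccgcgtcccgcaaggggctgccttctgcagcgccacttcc
The upstream region of Nop58, at chr1:59684756-59685005 (plus strand), has no match, and Nop58 had one of the smallest p-values of the 56 genes (log2 fold change 1.71).
Nop58: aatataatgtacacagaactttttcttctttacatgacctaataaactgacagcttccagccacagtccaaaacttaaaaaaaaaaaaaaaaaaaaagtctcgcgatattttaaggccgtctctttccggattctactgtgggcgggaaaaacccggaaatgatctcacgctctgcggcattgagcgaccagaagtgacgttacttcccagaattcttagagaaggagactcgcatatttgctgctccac
Myc itself, named after its values had been seen, stood at 66.2 and 62.4 FPKM in the controls and at 135.8 and 214.5 FPKM in the 5-FU libraries (log2 fold change 1.40 ± 0.25, SE, adjusted p = 0.0174 by limma). A match of the letters in a window is not evidence of binding, and binding was not measured.

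**Figure D3:**
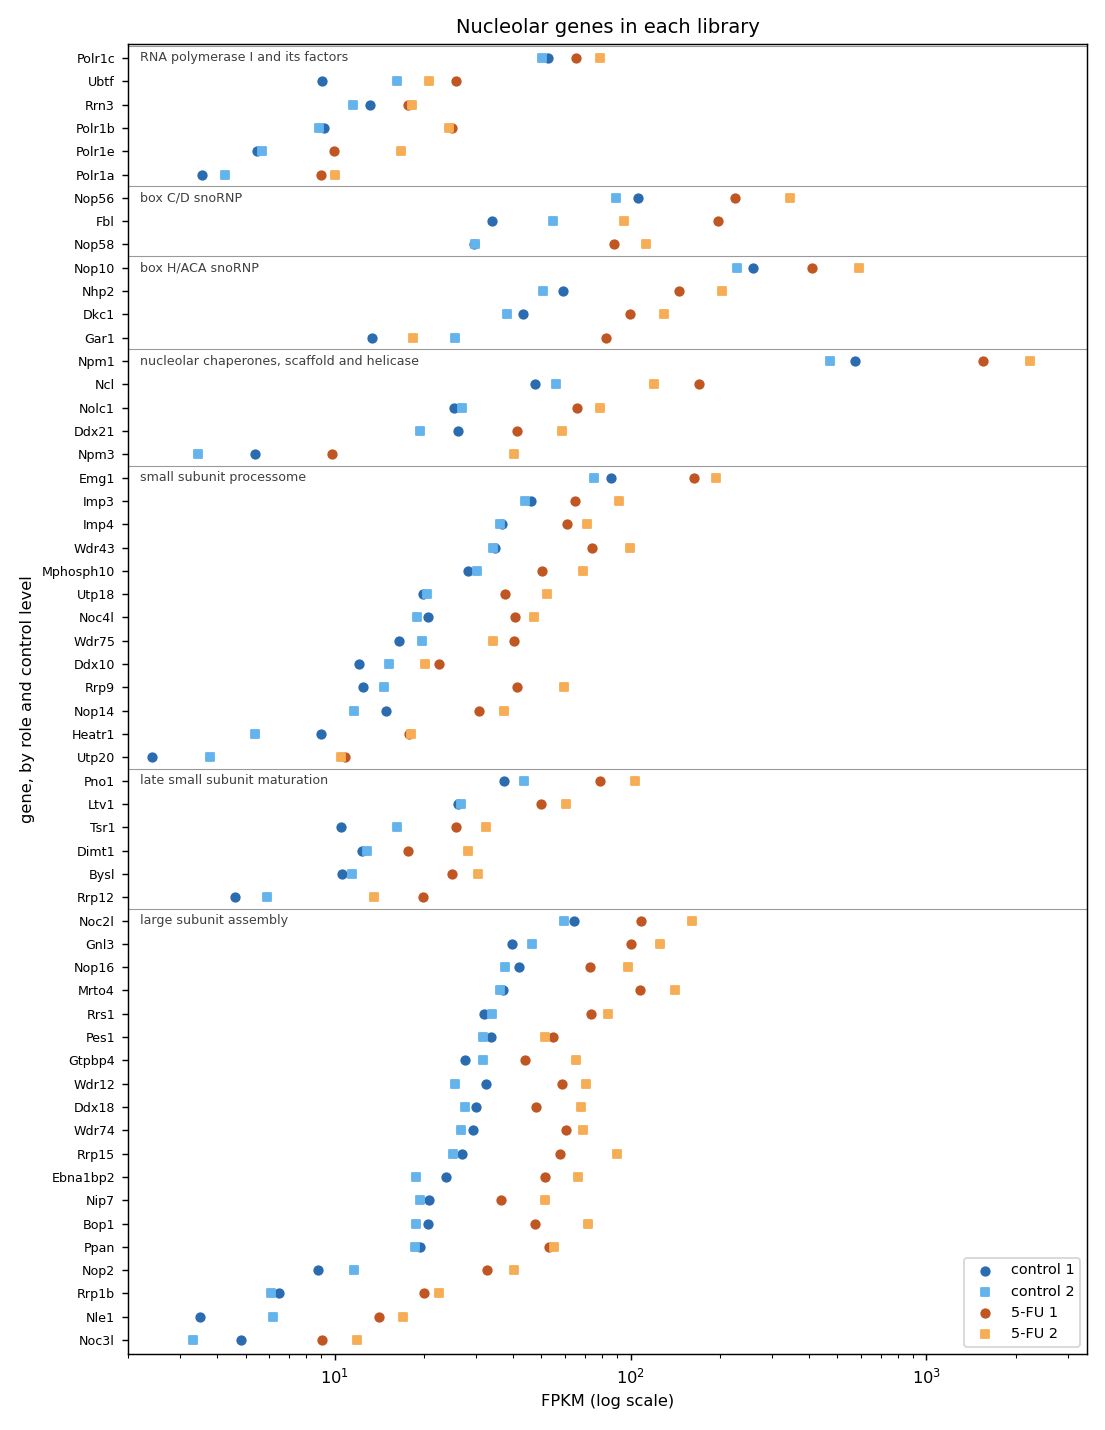
FPKM (x axis, log scale) of each of the 56 genes (y axis, grouped by role and ordered by control level) in each library, with controls in blue and 5-FU libraries in orange. The orange points lie to the right of the blue ones in every row but that of Gar1.

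RNA polymerase I and its initiation factors were the role with the fewest calls. Of 6 genes 2 rose, against 8.23% of all tested genes, and the median log2 fold change was 0.98. In all 6 both 5-FU libraries lay above both controls, against 31.4% of all tested genes. Polr1b and Polr1a encode the subunits that form the catalytic centre. Polr1b went from 9.24 and 8.85 FPKM to 24.9 and 24.3 FPKM, which gave 1.35 ± 0.22 on the log2 scale (SE, with adjusted p = 0.015). The 5-FU values lie close together and apart from the controls. Polr1a, on chromosome 6, had the lowest level of the 56 genes in both 5-FU libraries. It stood at 3.57 and 4.27 FPKM in the controls and at 8.99 and 10.01 FPKM in the 5-FU libraries (1.10 ± 0.27, adjusted p = 0.04). With TPM scaling Polr1a did not pass (adjusted p = 0.0565), which leaves 1 of the 6. The remaining 4 did not pass. Polr1e, a subunit that helps the polymerase onto the promoter, had 5.47, 5.68, 9.93 and 16.8 FPKM (1.09 ± 0.31, adjusted p = 0.0569). Ubtf encodes the factor that coats active ribosomal DNA, and its values were 9.07, 16.3, 25.6 and 20.8 FPKM (0.87 ± 0.30, adjusted p = 0.0956). The controls of Ubtf differed from each other by more than the 5-FU libraries did. Rrn3 encodes the factor that makes the polymerase competent to initiate, and had 13.2, 11.5, 17.7 and 18.3 FPKM (0.51 ± 0.23, adjusted p = 0.17). Polr1c, a subunit shared with RNA polymerase III, was the most abundant of the 6, at 52.6, 50.1, 65.4 and 78.9 FPKM (0.48 ± 0.19, adjusted p = 0.142). Its level relative to Polr1a was 14.7 and 11.8 in the controls and 7.27 and 7.88 in the 5-FU libraries, whereas Polr1b relative to Polr1a was 2.59 and 2.08 against 2.77 and 2.43. These ratios were not tested.

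The box C/D snoRNP carries out ribose methylation of ribosomal RNA. All 3 of its genes rose, against 8.23% of all tested genes, with a median log2 fold change of 1.65. Nop58, a core protein (chr1:59684971-59719044, plus strand, GRCm38), stood at 29.7 and 29.9 FPKM in the controls and at 87.8 and 113.2 FPKM in the 5-FU libraries. This was a change of 1.71 ± 0.20 (SE, with adjusted p = 0.00853), and the lower 5-FU library was more than 2-fold above the higher control. Nop56, its partner (chr2:130274430-130279313, plus strand), was more abundant, with 105.8 and 89.1 FPKM against 225.2 and 346.6 FPKM (1.52 ± 0.25, adjusted p = 0.0154). Fbl encodes the methyltransferase fibrillarin, and its replicates differed widely in both groups. It stood at 33.9 and 54.9 FPKM in the controls and at 197.9 and 95.3 FPKM in the 5-FU libraries (1.65 ± 0.37, adjusted p = 0.0295), and it did not pass with TPM or quantile scaling (adjusted p = 0.0575 and 0.0559). The groups of Fbl do not overlap, but it is 1 of 3 genes whose 5-FU libraries lay over 2-fold apart. Nop56 relative to Fbl accordingly ranged from 1.14 in 5-FU library 1 to 3.64 in 5-FU library 2, with the controls at 3.12 and 1.62 in between.

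The box H/ACA snoRNP makes pseudouridines in ribosomal RNA and shares its core with telomerase. Of its 4 genes 3 rose, against 8.23% of all tested genes. Nhp2 went from 59.2 and 50.7 FPKM to 145.3 and 204.1 FPKM (1.64 ± 0.23, adjusted p = 0.0109). Dkc1 encodes the pseudouridine synthase dyskerin (chrX:75095854-75109777, plus strand), and had 43.5 and 38.3 FPKM in the controls and 99.8 and 129.3 FPKM in the 5-FU libraries (1.45 ± 0.21, adjusted p = 0.0117). Nop10, the smallest of the core proteins, had by far the highest level of the 4. It stood at 259 and 228 FPKM against 411 and 594 FPKM (1.02 ± 0.24, adjusted p = 0.0362), so that Nop10 relative to Dkc1 was 5.95 and 5.97 in the controls and 4.12 and 4.59 in the 5-FU libraries. Gar1 was the gene of the 56 whose groups overlapped. Its values were 13.3 and 25.4 FPKM in the controls and 82.4 and 18.4 FPKM in the 5-FU libraries, and it did not pass (1.05 ± 0.62, adjusted p = 0.283). Only 5-FU library 1 was high, and without it the log2 fold change was -0.0083.

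Nucleolar chaperones, scaffold proteins and the helicase Ddx21 formed a role of 5 genes. Of these 4 rose, against 8.23% of all tested genes, with a median of 1.45. Npm1 encodes nucleophosmin, the most abundant nucleolar chaperone, and was the highest of the 56 genes in every library. It stood at 575 and 472 FPKM in the controls and at 1549 and 2246 FPKM in the 5-FU libraries (1.84 ± 0.28, adjusted p = 0.0141). The gene lies at chr11:33152287-33163206 (minus strand), and near-identical stretches of its transcript occur in other genes, so reads could be shared with them. Ncl, which encodes nucleolin, a protein that binds the precursor RNA, had 47.6 and 56.05 FPKM against 169.9 and 120.1 FPKM (1.45 ± 0.23, adjusted p = 0.0144). Nolc1 encodes a scaffold that binds both classes of snoRNP, and went from 25.3 and 27.0 FPKM to 66.1 and 78.9 FPKM (1.43 ± 0.20, adjusted p = 0.0109). Ddx21, an RNA helicase that couples polymerase I transcription to processing, had 26.0 and 19.4 FPKM against 41.4 and 58.7 FPKM (1.10 ± 0.25, adjusted p = 0.0321). Npm3, a small relative of nucleophosmin, had the largest log2 fold change of all 56 and did not pass. Its 5.39 and 3.46 FPKM in the controls and 9.81 and 40.3 FPKM in the 5-FU libraries gave 1.99 ± 0.57 (adjusted p = 0.0586), and the size of the change came mostly from 5-FU library 2.

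The small subunit processome is the large particle that forms on the leading part of the precursor RNA. Of its 13 genes 11 rose, against 8.23% of all tested genes, with a median log2 fold change of 1.11. In all 13 both 5-FU libraries lay above both controls, against 31.4% of all tested genes. Rrp9, a protein of the U3 snoRNP that anchors the particle (chr9:106475963-106485424, plus strand), stood at 12.4 and 14.7 FPKM in the controls and at 41.5 and 59.6 FPKM in the 5-FU libraries (1.80 ± 0.24, adjusted p = 0.0107). Its log2 fold change was the largest of the 13, although differences between genes were not tested. Wdr43, of the subcomplex that binds the precursor first, had 34.7 and 34.3 FPKM against 74.1 and 99.5 FPKM (1.29 ± 0.21, adjusted p = 0.0152). Heatr1 and Wdr75 belong to the same subcomplex. Heatr1 had 9.02 and 5.38 FPKM against 17.8 and 18.1 FPKM (1.25, adjusted p = 0.0329; 0.0508 with TPM scaling). Wdr75 had 16.5 and 19.8 FPKM against 40.4 and 34.3 FPKM (1.00, adjusted p = 0.0274). Utp20, a very large scaffold protein, was the lowest of the processome genes at 2.41 and 3.79 FPKM in the controls, and reached 10.8 and 10.5 FPKM (1.53, adjusted p = 0.0206). At such levels the added pseudocount of 1 FPKM understates the change. Emg1, an RNA methyltransferase, was the most abundant, with 86.2 and 75.3 FPKM against 164 and 194 FPKM (1.14, adjusted p = 0.0165). Mphosph10, Imp3 and Imp4 form a small complex that pairs U3 with the precursor. Mphosph10 (0.98) and Imp4 (0.83) rose, and Imp3, at 46.2 and 44.0 FPKM against 64.8 and 91.5 FPKM, did not pass (0.76 ± 0.22, adjusted p = 0.061). The levels of Imp3 and Imp4 stayed close to each other, with ratios between 1.06 and 1.29 in the 4 libraries. The other gene that did not pass was the helicase gene Ddx10, at 12.1 and 15.3 FPKM against 22.5 and 20.2 FPKM (0.61 ± 0.23, adjusted p = 0.117). The processome genes Nop14, Noc4l and Utp18 rose by 1.30, 1.11 and 1.10 on the log2 scale.

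Late maturation of the small subunit was represented by 6 genes. Of these 5 rose, against 8.23% of all tested genes, with a median of 1.11. Bysl encodes bystin, which stays on the maturing small subunit until it reaches the cytoplasm, and went from 10.6 and 11.5 FPKM to 24.99 and 30.6 FPKM (1.25 ± 0.23, adjusted p = 0.0181). Pno1, which holds the end of the small-subunit RNA before its last cut, had 37.5 and 43.8 FPKM against 78.9 and 103.9 FPKM (1.14 ± 0.22, adjusted p = 0.0197). Rrp12, an export factor, had the largest change of the 6. It stood at 4.59 and 5.91 FPKM against 19.9 and 13.6 FPKM (1.49, adjusted p = 0.0207). Tsr1, a GTPase-like factor, and Ltv1, an export adaptor, rose by 1.08 and 1.03, Tsr1 without passing under TPM or quantile scaling (adjusted p = 0.0565 and 0.0572). Dimt1 dimethylates the small-subunit RNA. Its values were 12.4, 12.9, 17.7 and 28.1 FPKM, the groups did not overlap, and it did not pass (0.78 ± 0.27, adjusted p = 0.0957). The exons of Tsr1 overlap those of Srr on the other strand over 32.3% of their length, and those of Dimt1 overlap Kif2a over 31.9%. Whether the counting used strand is not stated in the sources used here, so reads of these pairs could be shared.

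Large subunit assembly was the largest role, and 17 of its 19 genes rose, against 8.23% of all tested genes, with a median of 1.23. A gap of at least 2-fold between the groups was found for 11 of the 19, against 4.51% of all tested genes. Mrto4, which keeps the place of the ribosomal stalk (chr4:139347435-139352576, minus strand), had one of the smallest p-values of the 56. It went from 37.1 and 36.3 FPKM to 107.8 and 141.1 FPKM (1.72 ± 0.21, adjusted p = 0.00853). Ppan, a factor of early large-subunit particles, had closely agreeing replicates, 19.4 and 18.7 FPKM against 52.9 and 54.9 FPKM (1.45 ± 0.19, adjusted p = 0.0101). Nop2 encodes a methyltransferase for ribosomal RNA. It stood at 8.78 and 11.7 FPKM against 32.8 and 40.4 FPKM, the largest change of the 19 (1.75 ± 0.24, adjusted p = 0.0109). Rrp1b, at 6.47 and 6.11 FPKM against 20.1 and 22.5 FPKM (1.61), and Nle1, at 3.51 and 6.18 FPKM against 14.1 and 17.1 FPKM (1.54), also rose by more than 1.5 on the log2 scale. Nle1 is the adaptor for an ATPase that strips factors from the maturing particle. Gnl3, or nucleostemin, a GTPase named for its abundance in stem cells, had 39.9 and 46.3 FPKM against 100.04 and 126 FPKM (1.36, adjusted p = 0.0129). Rrs1, which helps to load the small ribonucleoprotein of the central protuberance, had 31.9 and 34.1 FPKM against 73.6 and 83.6 FPKM (1.23, adjusted p = 0.0142). Noc2l, the most abundant of the 19, had 64.3 and 59.4 FPKM against 108 and 162 FPKM (1.08, adjusted p = 0.0274), and its partner Noc3l, the least abundant, had 4.83 and 3.32 FPKM against 9.08 and 11.9 FPKM (1.19, adjusted p = 0.042; 0.056 with TPM scaling). Rrp15, Ebna1bp2, Wdr74, Nop16, Nip7 and Ddx18 rose by 1.44, 1.42, 1.18, 1.07, 1.07 and 0.96.

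The trimer of Pes1, Bop1 and Wdr12 is needed to process the large-subunit RNA. The estimated changes of its genes were not the same, and differences between them were not tested. Bop1 had 20.7 and 18.9 FPKM against 47.5 and 71.7 FPKM (1.51 ± 0.24, adjusted p = 0.0148), and Wdr12 had 32.4 and 25.6 FPKM against 58.8 and 71.0 FPKM (1.14 ± 0.22, adjusted p = 0.0198). Pes1, at 33.7 and 31.7 FPKM against 54.8 and 51.3 FPKM, did not pass (0.68 ± 0.19, adjusted p = 0.0546). The level of Pes1 relative to Bop1 was 1.63 and 1.68 in the controls and 1.15 and 0.716 in the 5-FU libraries. Wdr12 relative to Bop1 was 1.57 and 1.36 against 1.24 and 0.99. In both ratios the groups are apart, and neither was tested. Gtpbp4, a GTPase of nucleolar large-subunit particles, was the other gene of the role that did not pass, with 27.6 and 31.7 FPKM against 44.1 and 65.5 FPKM (0.84 ± 0.24, adjusted p = 0.0588).

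**Figure D4:**
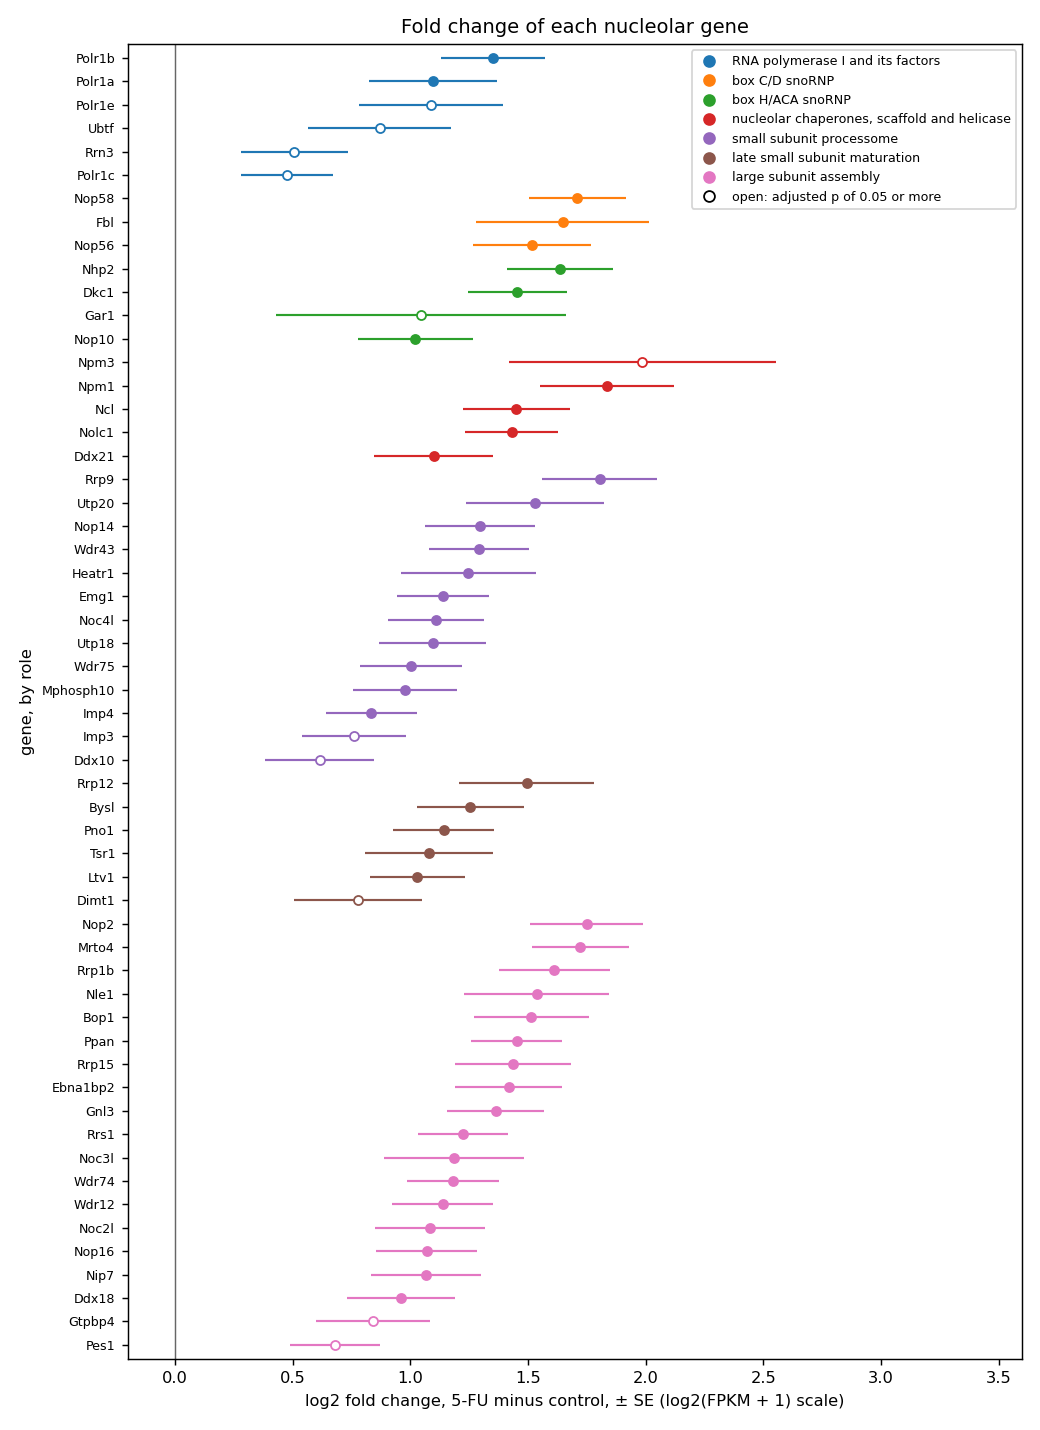
Log2 fold change (5-FU minus control on the log2(FPKM + 1) scale, x axis) with its SE (bars) of each of the 56 genes (y axis), coloured by role. Filled points are the 45 genes with an adjusted p under 0.05 and open points the 11 others, of which Gar1 and Npm3 have the widest bars, and Polr1c the smallest change.

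Among the 11 genes that did not pass, 7 had an adjusted p between 0.05 and 0.1 by limma (Polr1e, Ubtf, Npm3, Imp3, Dimt1, Pes1 and Gtpbp4). A p above the threshold does not show that these genes were unchanged. Across the 56 genes, which are measured in the same libraries, the log2 fold change and the log2 level in the controls had a correlation of r = -0.041. The order of the genes by level was similar in all libraries, with a rank correlation between 0.913 and 0.971 for any pair of libraries. The log2 values had r between 0.926 and 0.974.

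The 2 recipients in the 5-FU group were not at the same level. Of the 56 genes, 46 were higher in 5-FU library 2 than in 5-FU library 1, which is 82.1% against 51.9% of all tested genes. The median ratio was 1.24. The 10 that were lower in 5-FU library 2 were Polr1b, Ubtf, Fbl, Gar1, Ncl, Wdr75, Utp20, Ddx10, Rrp12 and Pes1. Between the controls the median ratio of library 2 to library 1 was 0.971, and 25 of the 56 were higher in library 2 (44.6%, against 49.96% of all tested genes). Fbl, Gar1 and Npm3 were over 2-fold apart between the 5-FU libraries, and no gene was between the controls. Markers of macrophages moved with this gap in the other direction. They summed to 17253 FPKM in 5-FU library 1 and to 8859 in 5-FU library 2, none of the 15 at 0. Against the controls 3 of the 15 fell (Csf1r, Mrc1 and Spic), with a median log2 fold change of -0.97 for the list. Their part in the level of the nucleolar genes was not tested. The stem and progenitor markers were also higher in 5-FU library 2, with a sum of 604.9 against 420.5 FPKM, and their part was not tested either.

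**Figure D5:**
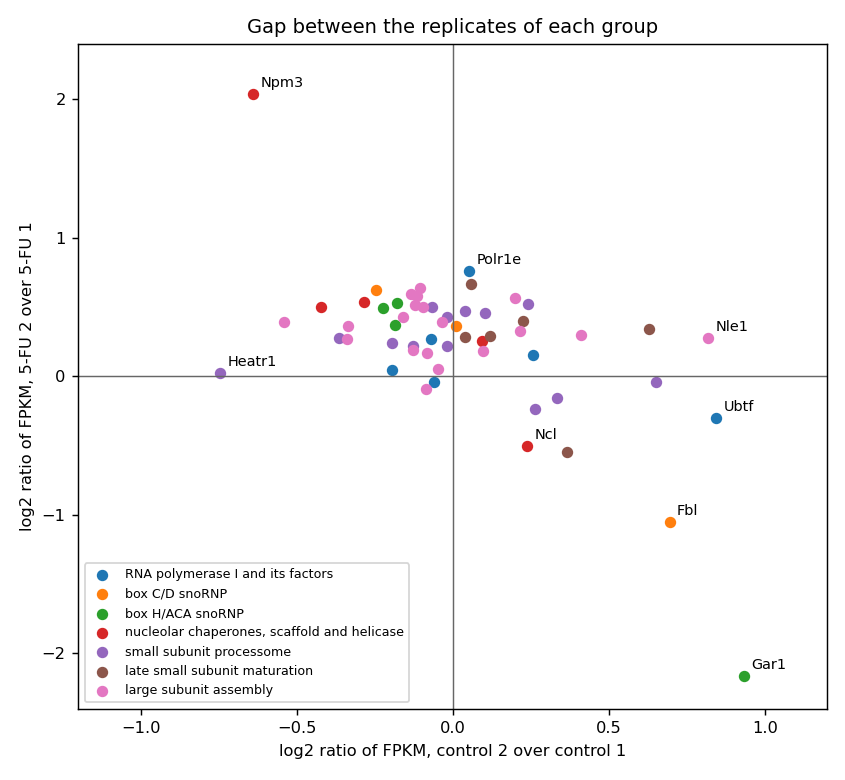
Log2 ratio of FPKM between the replicates of the 5-FU group (library 2 over library 1, y axis) and of the control group (x axis), 1 point per gene, coloured by role. Most points lie above the horizontal line, and Gar1, Fbl and Npm3 stand farthest from it.

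Some of the 56 genes carry snoRNA genes in their own introns or exons. By the annotation (GENCODE vM21, GRCm38) 8 of the 56 (14.3%) held 23 snoRNAs on the same strand, against 2.03% of the 10348 tested genes that could be matched. Nop56 held 5 of them, Nop58 held 4, Ncl, Wdr43 and Gnl3 held 3 each, Tsr1 and Ppan 2 each, and Dkc1 held 1. All 8 hosts rose, with a median log2 fold change of 1.45. Of the 48 others 37 rose, with a median of 1.14. Among all tested genes 8.23% rose, and calls among all tested genes that hold a snoRNA were not counted. The difference between hosts and others was not tested.

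Some transcripts resemble others closely. A stretch of at least 75 bases, the read length, with at least 98% identity to the transcript of another gene was found for 14 of the 56 genes, among them Npm1, Nop56, Nop58, Fbl, Mrto4 and Ppan. Levels of these genes are uncertain to the extent that reads were split between the copies. Of the 42 without such a stretch 35 rose, against 8.23% of all tested genes, and their median of 1.18 equals that of all 56. Noc2l overlaps the exons of Samd11 on the other strand over 20.9% of its length.

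The rest of the pathway mostly had the same direction, with a lower median. The 56 genes had been chosen with earlier results of these data known, and the difference in median was not tested. Of 118 other genes of nucleolar ribosome assembly, from lists of further subunits and factors, 44 rose and 0 fell. Over all tested genes 8.23% rose and 4.67% fell. The 118 genes had a median log2 fold change of 0.71, and 115 were positive. As with the 56 genes and with all tested genes, fewer passed when either control library was left out, and more passed without 5-FU library 1. Among 15 further polymerase I subunits and factors 6 rose, with a median of 0.66. Polr2l, a small subunit common to the RNA polymerases, had 32.6 and 27.4 FPKM against 65.1 and 81.1 FPKM (1.26, adjusted p = 0.016), and Tcof1, a ribosomal DNA transcription factor, had 11.997 and 10.7 FPKM against 31.5 and 26.3 FPKM (1.27, adjusted p = 0.0172). The terminator protein gene Ttf1 was at 8.97, 7.40, 6.43 and 6.51 FPKM (-0.29, adjusted p = 0.488), and the promoter factor gene Taf1b at 18.6, 18.5, 16.5 and 17.0 FPKM (-0.14, adjusted p = 0.692). Both were named after their values had been seen. Among 34 further small subunit factors 10 rose, with a median of 0.67. The processome gene Cirh1a, at 16.7 and 17.0 FPKM against 53.7 and 64.0 FPKM (1.74, adjusted p = 0.00795), and Wdr46, at 17.6 and 15.3 FPKM against 49.2 and 49.5 FPKM (1.53, adjusted p = 0.00991), were first by p. Among 43 further large subunit factors 14 rose, with a median of 0.67. The methyltransferase gene Ftsj3, at 27.0 and 28.2 FPKM against 65.7 and 67.1 FPKM (1.24, adjusted p = 0.0129), and the helicase gene Ddx27, at 17.6 and 16.8 FPKM against 41.9 and 42.7 FPKM (1.25, adjusted p = 0.0144), were first by p in that list.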

How the data were processed

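The deposited values are FPKM per gene symbol, 1 table per library. Per the submitters' processing notes, the tools were TopHat2 2.0.13, Bowtie2 2.2.3, SAMtools 0.1.19 and Cuffnorm 2.2.1, with mm10. The annotation and Cuffnorm's normalization setting are not stated in the sources used here. Per the labels' protocols, a SMART-Seq Ultra Low Input kit was used and single reads of 75 bp were taken. The day in the column headers of the 5-FU tables differs from that in their names, and groups follow the labels.

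FPKM were used as deposited. The 11496 genes that reached 1 FPKM in 2 or more of the 4 libraries were compared on log2(FPKM + 1) with limma 3.58.1 in R 4.3.3 (lmFit, eBayes with trend, two-sided, Benjamini-Hochberg over all tested genes, threshold 0.05, 2 residual and 5.62 prior degrees of freedom). A permutation of 2 against 2 cannot go below p = 0.333. The lists of genes, members included, were chosen with earlier results of these data known. Full values are given for the genes of the 2 smallest and the largest p in each role, and of further lists for the 2 of smallest p; others were added after their values were seen. 1 further gene, Nopchap1, matched no symbol and Adgre1 was matched through a synonym. The values of an erythroid marker are not reported here. Promoters are from RefSeq (GRCm38.p6), and copies were sought with BLAST 2.17.0. Alternatives were a pseudocount of 0.1 or 5, a filter at 5 FPKM or none, 3 other scalings, robust eBayes, no trend, a replicate block and leaving out each library.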

Additional observations from a re-analysis of the deposited data

How the results depend on the processing

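All 56 log2 fold changes were positive under every alternative except that of Gar1 without 5-FU library 1, which was -0.0083. For Gar1 alone, leaving out each library in turn gave a range of -0.0083 to 2.10. With no filter 3 genes rose and 4 fell. Of the 56 and of the 118 other pathway genes 0 passed (smallest adjusted p of the 56 by limma 0.0822). With no trend 548 rose and 299 fell, 30 of the 56 and 24 of the 118 among the former. Leaving out each library in turn, genes called higher ranged from 88 to 2294 and genes called lower from 38 to 2057, the 56 from 0 to 52 and the 118 from 2 to 81. The lone library of a group is then assumed to vary like the other group. These ranges include a version, chosen after seeing the data, in which the filter was applied to the 3 libraries left. Without either control library it gave more calls than the main filter did, among the 56 and among all tested genes. Pseudocounts, scalings, robust eBayes and the filter of 5 FPKM gave between 40 and 49 of the 56, with 6.85% to 11.9% of all tested genes called higher. The replicate numbers pair nothing the labels name. Deviations of same-numbered libraries correlated at -0.16 over all tested genes and at -0.598 over the 56. With the replicate block 44 of the 56 rose, against 7.44% of all tested genes. Polr1a, Nop10 and Imp4 no longer passed (adjusted p = 0.0514, 0.0657 and 0.0546 by limma), and Polr1e and Npm3 did. With the numbers crossed, also chosen after seeing the data, 1686 genes rose and 1365 fell, 53 of the 56 among the former. The difference in share of FPKM was 0.297 percentage points without Npm1 and Ncl. The cause of these shifts was not tested. Depth limits the lowest genes most, such as Utp20 in the controls.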

Other observations

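The RNA exosome, which trims and degrades precursor RNA, was the list of the wider pathway with the second highest median after snoRNP assembly. Of 16 genes of the exosome and of rRNA trimming 9 rose and 0 fell, with a median log2 fold change of 0.87, against 8.23% of all tested genes called higher. Exosc6 went from 21.4 and 25.3 FPKM in the controls to 64.7 and 93.1 FPKM in the 5-FU libraries (1.70 ± 0.24, SE, adjusted p = 0.0109 by limma). Exosc2 went from 23.2 and 21.9 FPKM to 57.6 and 59.1 FPKM (1.33 ± 0.19, adjusted p = 0.0117). Both encode proteins of the core of the complex. Dis3, which encodes a catalytic subunit, had 7.22 and 4.67 FPKM against 17.4 and 24.01 FPKM (1.65 ± 0.29, adjusted p = 0.0177). Exosc10, which encodes the other nuclease, of the nucleolar form, had 34.0 and 35.5 FPKM against 33.0 and 43.0 FPKM and did not pass (0.11 ± 0.21, adjusted p = 0.755). The groups of Exosc10 overlapped and those of Dis3 did not. Dis3 and Exosc10 were named after their values had been seen, and the difference between them was not tested.

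Among 10 genes of snoRNP core and assembly 5 rose, against 8.23% of all tested genes, with a median of 1.04. The ATPase genes Ruvbl1 and Ruvbl2 encode partners of one ring that assembles snoRNPs among other complexes. Ruvbl2 had 35.8 and 30.5 FPKM against 107.6 and 139.6 FPKM (1.86 ± 0.21, adjusted p = 0.00792), and Ruvbl1, named after its values had been seen, had 49.6 and 41.6 FPKM against 92.4 and 158 FPKM (1.39 ± 0.27, adjusted p = 0.0219). Nhp2l1, which binds the box C/D RNA first, had 95.4 and 86.5 FPKM against 179.9 and 295.6 FPKM (1.33 ± 0.26, adjusted p = 0.0214). The 5-FU libraries were above both controls in all 10 genes, against 31.4% of all tested genes. Without control library 1 the call count of all 118 pathway genes falls to 2, so the calls of these lists share that limit.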
